A study of Mus musculus with 84 samples.

Results

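Constitutively active SMAD3 (Smad3CA) was set against a control vector in mouse cells on day 10 of reprogramming to induced pluripotent stem cells (iPSCs). The wells whose titles name day 10 with Sm3CA or with BFP were taken, and the 2 technical wells of each replicate number were summed, which gave 12 wells and 6 libraries of the 84 wells and 30 libraries of the series, 3 libraries a side. Both sides started from mouse embryonic fibroblasts (MEFs) of 129 background derived from chimeric TNG MKOS embryos. These MEFs hold a Nanog-GFP reporter in place of 1 Nanog allele, the CAG-rtTA transactivator and a doxycycline-inducible Myc, Klf4, Oct4 and Sox2 cassette (MKOS) with an mOrange reporter, inserted at the Sp3 locus. They were mixed with wild-type MEFs, and mOrange+ cells were sorted, 2500 per sample by the series text, while the study's methods give a smaller number. The +Sm3CA cells carried a retroviral vector with Smad3 whose C-terminal serines were exchanged for aspartic acid, and the Cont cells carried the same vector backbone with the blue fluorescent protein EBFP2. Both were kept in 300 ng/ml doxycycline, 10 µg/ml vitamin C and 100 U/ml LIF. Libraries of day 3, 6 and 8 of both conditions, of wild-type 129 MEFs and of TNG MKOS embryonic stem cells (ESCs) were used for reference.

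SMAD2 and SMAD3 are the transcription factors that the receptors for TGF-β, activin and Nodal phosphorylate at the C terminus. The phosphorylated proteins pair with SMAD4, enter the nucleus and bind together with the factors that define each cell type. In fibroblasts they are known for switching on collagens, contractile genes and plasminogen activator inhibitor, and in pluripotent cells for acting downstream of Nodal and activin. During reprogramming of fibroblasts, mesenchymal genes are silenced, epithelial genes come on early, and the pluripotency network comes on late.

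The 6 libraries held 1008596 to 1434427 reads, and 3 reads, the smallest count used here as a limit, came to between 1.83 and 2.81 counts per 1000000 reads (CPM). Log levels correlated with r = 0.924 to 0.947 over the 6 pairs within a condition and with r = 0.897 to 0.927 over the 9 pairs between conditions, so that the ranges overlapped. These are correlations across genes, which are not independent replicates. Cont replicate 1 stood somewhat apart from the other Cont libraries, with lower levels of matrix, chemokine and leukocyte genes, and its effect is given where it changes a result. Mitochondrial transcripts took 20.9% to 24.3% of the +Sm3CA reads and 15.9% to 18.9% of the Cont reads, and their part in the differences below was not tested. The series text calls the replicates biological without saying whether they came from separate embryos or cultures, so p-values measure the spread between these libraries. In a sorted bulk sample, fewer cells of a type and less RNA per cell cannot be told apart.

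Smad3 itself (chr9:63646767-63757994, minus strand, GRCm38) did not pass the test on day 10. The Cont libraries gave 9.81, 13.8 and 16.4 CPM and the +Sm3CA libraries 31.8, 22.2 and 29.9 CPM. Every +Sm3CA library lay above every Cont library. The log2 fold change was 1.00 ± 0.36 (SE, n = 3 libraries a side; edgeR adjusted p = 0.12), and the exact two-sided permutation test gave p = 0.1, the smallest that 3 against 3 libraries allow. Reads of the vector and of the endogenous gene are counted together. The excess of Smad3 was larger at the start of the course. Over day 3, 6, 8 and 10 the +Sm3CA means were 88.4, 42.9, 47.2 and 28.0 CPM, against 7.35, 10.9, 5.45 and 13.3 CPM in Cont. The day 10 difference was smaller than the day 3 difference by 2.54 ± 0.51 on the log2 scale (SE; edgeR adjusted p = 0.00585).

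The partners of Smad3 and the reprogramming factors did not pass the test. Smad2 had means of 34.6 ± 3.25 CPM in Cont and 50.2 ± 5.32 CPM in +Sm3CA (SD, n = 3 each; log2 fold change 0.50, edgeR adjusted p = 0.220), and Smad4, the common partner, had 63.2 ± 19 and 83.5 ± 15.9 CPM (SD, n = 3 each; edgeR adjusted p = 0.390). Reads of the cassette and of the endogenous genes were not separated, and how far the cassette is counted was not tested. Of the cassette factors, Pou5f1 (Oct4) had means of 65.3 and 87.1 CPM, Sox2 14.1 and 12.5 CPM, Klf4 7.30 and 7.87 CPM, and Myc 13.6 and 8.39 CPM in Cont and +Sm3CA. Their edgeR adjusted p-values ran from 0.393 for Myc to 0.989 for Klf4. The signs of Sox2 and Klf4 changed under some alternatives.

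Of 10237 genes tested, 366 (3.58%) differed between +Sm3CA and Cont on day 10 by the quasi-likelihood test of edgeR, adjusted by Benjamini-Hochberg, which is what "called" means throughout. There were 85 genes called higher (0.83% of those tested) and 281 called lower (2.74%) in +Sm3CA. The genes called lower also moved further. Their median size was 1.39 on the log2 scale, 219 of them passed 2-fold and 53 passed 4-fold, while the genes called higher had a median of 0.95 with 39 past 2-fold and 10 past 4-fold. The libraries of the conditions did not overlap for 254 of the 281 and 81 of the 85, against 10.1% (lower) and 10.6% (higher) of all genes tested. The calls and the overlap come from the same 6 libraries, so these shares follow in part from the selection and are no separate support. The calls rested on having all libraries: leaving out 1 library gave between 176 calls (without Cont replicate 2 or without +Sm3CA replicate 3) and 450 (without Cont replicate 1), with 203 without Cont replicate 3, 201 without +Sm3CA replicate 2 and 282 without +Sm3CA replicate 1.

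**Figure D1:**
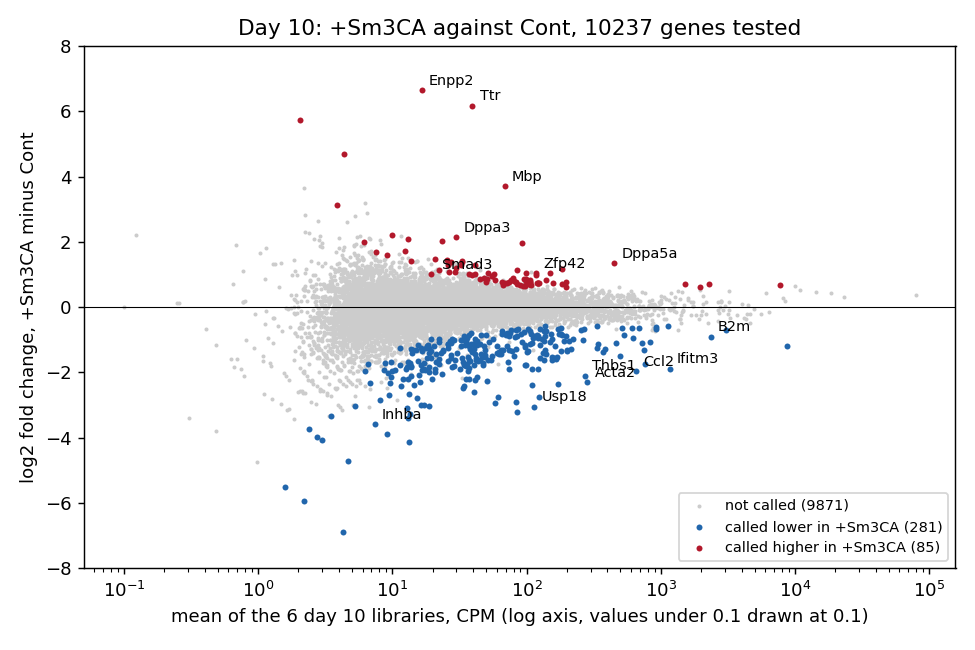
Log2 fold change of +Sm3CA minus Cont on day 10 (y axis) against the mean level of the 6 libraries in CPM (log x axis), 1 point per gene tested. The 281 genes called lower (blue) reach down to high levels such as Ifitm3 and Acta2, and the 85 called higher (red) include Zfp42, Dppa5a and Dppa3; Enpp2, Ttr and Mbp are high mainly in 1 library, and Smad3 is labelled although not called.

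Of the 10237 genes tested, 671 were on the 33 lists of genes by function. On a list were 99 of the 281 genes called lower and 11 of the 85 called higher. Members and lists were chosen with earlier results of these data known. The lists with the largest shares of members called lower held interferon-stimulated genes, collagens, TGF-β and SMAD3 targets of fibroblasts, contractile genes and matrix genes. The list of pluripotency genes held 5 of the genes called higher. The shares to set beside the counts of every list below are 2.74% called lower and 0.83% called higher of all genes tested. Cytosolic ribosomal proteins (55 tested), subunits of oxidative phosphorylation encoded in the nucleus (44 tested), epithelial junction genes (27 tested) and AP-1 and immediate early factors (17 tested) had 0 members called by edgeR and 0 by DESeq2, with 5, 4, 5 and 2 members at an unadjusted edgeR p under 0.05.

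**Figure D2:**
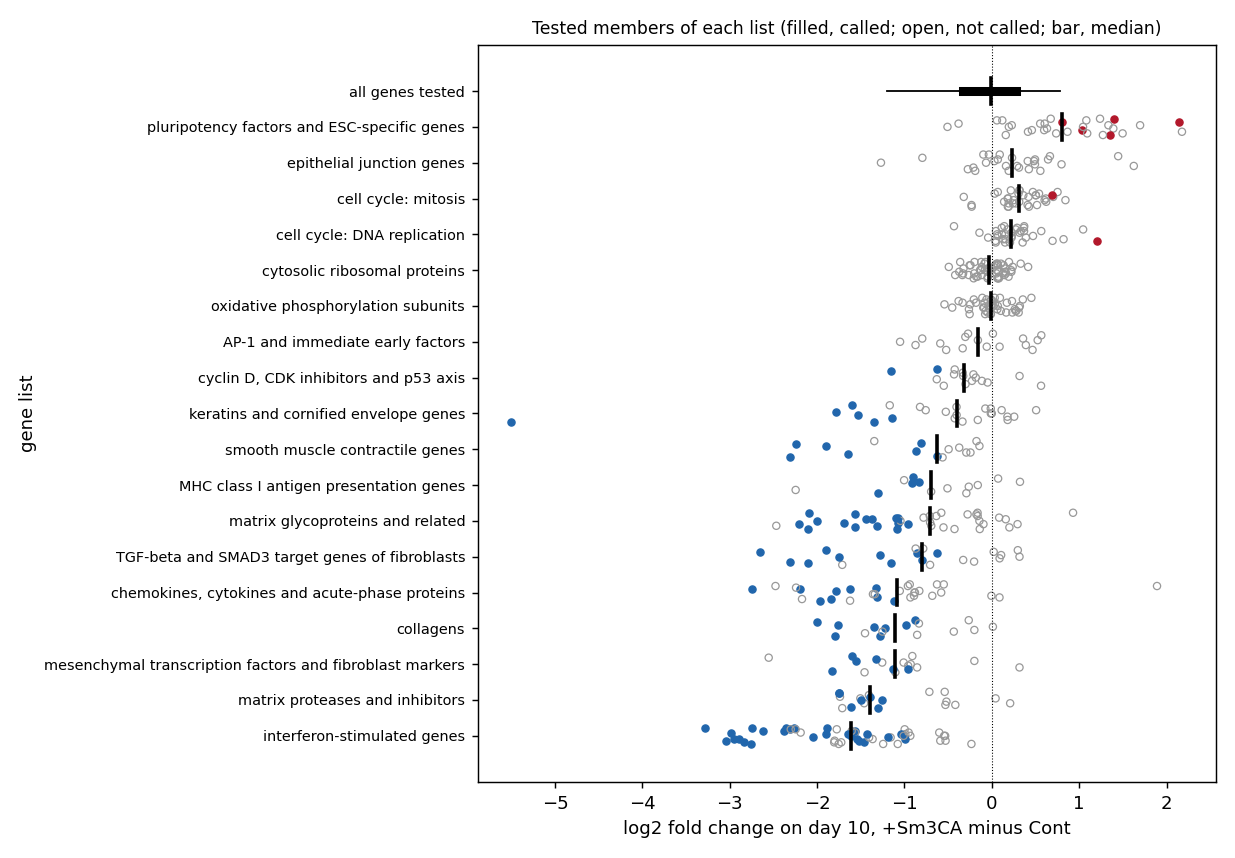
Log2 fold change on day 10 (x axis, +Sm3CA minus Cont) of each tested member of 18 lists (points; filled points are called, red higher and blue lower), with the list median (vertical bar). The top line shows all genes tested, with its thick part from the 25th to the 75th percentile and its thin part from the 5th to the 95th; medians run from 0.80 for pluripotency genes to -1.61 for interferon-stimulated genes, beside -0.01 for all genes.

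Of 21 TGF-β and SMAD3 target genes of fibroblasts tested, 10 were called lower in +Sm3CA and 0 higher, 5 had a positive log2 fold change, and the median log2 fold change was -0.79. Acta2, smooth muscle actin (chr19:34241090-34255590, minus strand), gave 423, 508 and 480 CPM in Cont and 115, 83.8 and 95 CPM in +Sm3CA, a 4.94-fold lower level (log2 fold change -2.30 ± 0.26 SE, edgeR adjusted p = 4.94e-07). Tagln, which encodes the actin-binding protein transgelin (chr9:45929619-45936058), gave 140, 186 and 194 CPM in Cont and 54.3, 57.1 and 31.7 CPM in +Sm3CA (3.72-fold lower, edgeR adjusted p = 6.12e-06). For both genes the libraries of the conditions lay far apart. Thbs1, thrombospondin 1, an activator of latent TGF-β (chr2:118111876-118127133), gave 217, 568 and 540 CPM in Cont and 100, 127 and 90.6 CPM in +Sm3CA (4.29-fold lower, edgeR adjusted p = 1.45e-05). Timp1, an inhibitor of matrix metalloproteinases (chrX:20870166-20874735), gave 886, 1447 and 1196 CPM in Cont and 327, 495 and 261 CPM in +Sm3CA (3.35-fold lower, edgeR adjusted p = 1.65e-05). The other called members were Col1a1, Ankrd1, Pmepa1, Ctgf, Cyr61 and Cdkn1a, with log2 fold changes from -2.65 for Ankrd1, a cardiac and stress-induced ankyrin repeat protein, to -0.63 for Cdkn1a. Smad7, the inhibitory SMAD induced by the pathway, had means of 11.1 and 12.4 CPM (edgeR adjusted p = 0.942). The number of members called lower was 5 without Cont replicate 2 or +Sm3CA replicate 3 and 6 without Cont replicate 3 or +Sm3CA replicate 1.

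Of 16 of the pathway's own ligands, receptors and SMADs tested, 2 were called lower, against 2.74% of all genes tested. Inhba, the subunit of activin A, gave 5.72, 10.7 and 24.4 CPM in Cont and 1.87, 0.741 and 0.880 CPM in +Sm3CA (chr13:16011851-16031621; log2 fold change -3.59 ± 0.83 SE, edgeR adjusted p = 0.00710), the latter below the level of 3 reads. Fst, follistatin, which binds and neutralises activin (chr13:114452290-114458951), gave 55.6, 65.7 and 50.6 CPM in Cont and 24.3, 29.7 and 17.6 CPM in +Sm3CA (2.44-fold lower, edgeR adjusted p = 0.00105). So an activin subunit and its antagonist were both lower, with no overlap between the conditions. The receptors Tgfbr1 (means 8.57 and 9.29 CPM) and Tgfbr2 (31.2 and 25.9 CPM) did not pass the test. The call on Inhba was lost without Cont replicate 3 or without +Sm3CA replicate 2 or 3, where the highest edgeR adjusted p was 0.118. Nodal pathway genes of pluripotent cells had 8 tested members, of which edgeR and DESeq2 called 0 and 2 had an unadjusted edgeR p under 0.05, with Lefty1, a Nodal inhibitor, at means of 8.86 and 2.88 CPM (edgeR adjusted p = 0.284). Of 12 BMP pathway and Id genes, 2 were called lower, Id3 and the procollagen protease Bmp1, against 2.74% of all genes tested. Id3, an inhibitor of basic helix-loop-helix factors, gave 105, 183 and 168 CPM in Cont and 108, 88.2 and 66.0 CPM in +Sm3CA, where 1 library overlapped. The calls on Id3 and Bmp1 were lost without Cont replicate 2 or 3 and without +Sm3CA replicate 2 or 3, Bmp1 also without +Sm3CA replicate 1, with edgeR adjusted p-values of up to 0.177 and 0.353 over all alternatives.

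**Figure D3:**
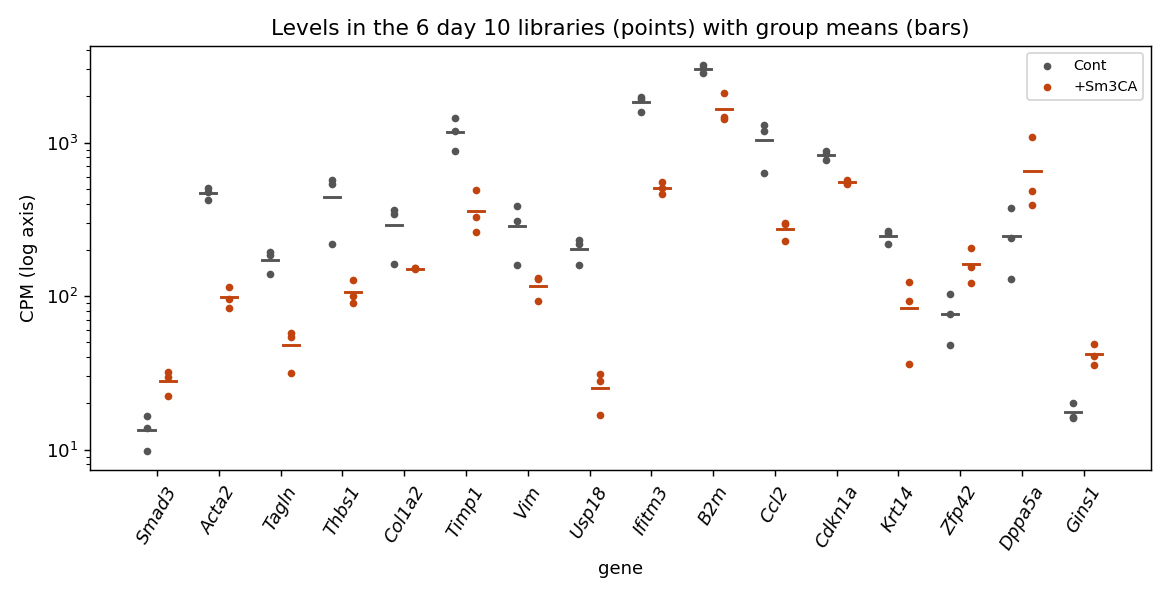
CPM (log y axis) of 16 genes in the 3 Cont (grey) and 3 +Sm3CA (orange) libraries of day 10, with group means as bars. Acta2, Tagln, Usp18 and Ifitm3 show the conditions far apart, Col1a2 shows 1 Cont library close to the +Sm3CA libraries, and Zfp42 and Dppa5a show higher and more spread levels in +Sm3CA.

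Genes of the extracellular matrix were counted in 3 lists. Of 16 collagens tested, 8 were called lower (Col1a1, Col1a2, Col4a1, Col4a2, Col5a1, Col5a2, Col8a1 and Col11a1), and the median log2 fold change was -1.10, beside -0.01 over all genes tested. Col5a2, a chain of the fibrillar collagen V (chr1:45374321-45503282), gave 84.2, 160 and 159 CPM in Cont and 53.3, 71.2 and 52.8 CPM in +Sm3CA (2.33-fold lower, edgeR adjusted p = 0.00108). Col4a2, a chain of the basement membrane collagen IV (chr8:11312805-11449287), gave 42.5, 63.4 and 62.7 CPM in Cont and 17.8, 28.9 and 21.1 CPM in +Sm3CA (2.54-fold lower, edgeR adjusted p = 0.00115). Col1a2, of the abundant collagen I (chr6:4504814-4541544), gave 163, 341 and 366 CPM in Cont and 152, 152 and 150 CPM in +Sm3CA (1.98-fold lower, edgeR adjusted p = 0.00445). Cont replicate 1 sat next to the +Sm3CA libraries for Col1a2, and for the sum over all collagens it lay among them: 587, 1503 and 1433 CPM in Cont against 668, 695 and 531 CPM in +Sm3CA. Without Cont replicate 1, 10 collagens were called lower, while there were 3 without Cont replicate 2 or 3 and 5 without +Sm3CA replicate 2 or 3. The call on Col1a2 was lost without Cont replicate 2 or 3 (edgeR adjusted p of up to 0.0843), and that on Col1a1 also without +Sm3CA replicate 3 (up to 0.108).

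Among 37 matrix glycoproteins, proteoglycans and crosslinking enzymes, 15 were called lower and 0 higher (median log2 fold change -0.71). Lox, the enzyme that crosslinks collagen, gave 106, 234 and 220 CPM in Cont and 81.4, 68.2 and 45.8 CPM in +Sm3CA (2.96-fold lower, edgeR adjusted p = 0.000110). Tnc, the glycoprotein tenascin C of wound matrix (chr4:63959785-64047015), gave 38.4, 101 and 45.1 CPM in Cont and 15.0, 11.9 and 14.1 CPM in +Sm3CA (4.63-fold lower, edgeR adjusted p = 0.000353). Fn1, fibronectin (chr1:71585520-71653200), gave 154, 221 and 226 CPM in Cont and 91.7, 110 and 89.8 CPM in +Sm3CA (2.11-fold lower, edgeR adjusted p = 0.000934). None of the 3 genes overlapped between the conditions. Sparc, osteonectin, was among the most abundant, with means of 1126 ± 432 and 551 ± 95.1 CPM (SD, n = 3 each; edgeR adjusted p = 0.00412). Not every matrix gene moved: Dcn, the proteoglycan decorin, had a log2 fold change of -0.10 ± 0.19 (SE, edgeR adjusted p = 0.864). The count of 15 fell to 9 without Cont replicate 2.

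Matrix proteases and their inhibitors gave 7 genes called lower and 0 higher of 19 tested, with a median log2 fold change of -1.39. The called genes were the inhibitors Timp1, Timp2, Timp3 and Serpine2 and the proteases Mmp2, Ctsk and Ctsl. Timp3, a matrix-bound metalloproteinase inhibitor (chr10:86300372-86349506), gave 101, 303 and 292 CPM in Cont and 85.2, 69.7 and 80.1 CPM in +Sm3CA (3.06-fold lower, edgeR adjusted p = 0.000146). Ctsl, the lysosomal protease cathepsin L (chr13:64359337-64370890), gave 402, 502 and 491 CPM in Cont and 146, 228 and 227 CPM in +Sm3CA (2.38-fold lower, edgeR adjusted p = 1.89e-05). Serpine2, protease nexin 1 (chr1:79794197-79861180), gave 48.2, 119 and 92.6 CPM in Cont and 39.3, 28.2 and 35.2 CPM in +Sm3CA (2.62-fold lower, edgeR adjusted p = 0.00189). For Ctsl every Cont library was well above every +Sm3CA library, while for Timp3 and Serpine2 Cont replicate 1 was close to them.

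Of 17 mesenchymal transcription factors and fibroblast markers tested, 6 were called lower (Vim, S100a4, Fbln2, Cdh11, Axl and Prrx1) and the median log2 fold change was -1.10. Vim, the intermediate filament vimentin (chr2:13573927-13582826), gave 159, 386 and 310 CPM in Cont and 128, 130 and 92.4 CPM in +Sm3CA (2.51-fold lower, edgeR adjusted p = 0.000505). Cdh11, the mesenchymal cadherin (chr8:102632095-102785642), gave 16.4, 32.1 and 39.0 CPM in Cont and 10.3, 8.16 and 7.04 CPM in +Sm3CA (3.56-fold lower, edgeR adjusted p = 0.00564). Neither overlapped between the conditions, and the call on Cdh11 was lost without Cont replicate 3 or +Sm3CA replicate 3 (edgeR adjusted p of up to 0.0707). Twist1 and Zeb1, drivers of the mesenchymal state, did not pass the test (edgeR adjusted p = 0.565 and 0.551). Of 15 smooth muscle contractile genes, 7 were called lower (Acta2, Actg2, Tagln, Myl9, Tpm1, Tpm4 and Cald1), and 15 of 15 had a negative log2 fold change. Actg2, enteric smooth muscle actin (chr6:83512905-83536265), gave 69.5, 61.1 and 73.1 CPM in Cont and 16.8, 13.3 and 14.1 CPM in +Sm3CA (4.74-fold lower, edgeR adjusted p = 5.35e-06), with the conditions wide apart. Without Cont replicate 2 the counts were 2 mesenchymal and 4 contractile genes, without +Sm3CA replicate 3 they were 3 and 4, and without Cont replicate 3 the mesenchymal count was 3.

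Of the 10 fibroblast marker genes 9 were tested. Of these, 3 were called lower (Col1a1, Col1a2 and Prrx1), and their summed level was 752 to 1520 CPM in Cont and 799 to 1003 CPM in +Sm3CA, so that the sums overlapped. The calls on the 3 markers were all lost without Cont replicate 2 or Cont replicate 3. Compared with wild-type MEFs, the contractile gene Acta2 was low in both conditions: its mean was 12498 CPM in MEFs and 7.94 CPM in ESCs. CD44, a surface protein of fibroblasts that falls as reprogramming proceeds, was encoded by the only called gene among 15 surface markers of reprogramming stages. Cd44 (chr2:102811141-102901665) gave 201, 255 and 225 CPM in Cont and 133, 130 and 136 CPM in +Sm3CA (1.75-fold lower, edgeR adjusted p = 0.00208).

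Interferon-stimulated genes, the antiviral program that cells switch on through factors such as STAT2 and IRF9, were the list with the most calls. Of 52 tested, 26 were called lower and 0 higher, all 52 had a negative log2 fold change, and the median was -1.61. For reference, 2.74% of all genes tested were called lower. A DNA element for these factors, the interferon-stimulated response element, has a core of GAAA, any bases NN and GAAA. The core was searched on both strands from 250 bases before to 50 after the start of RefSeq promoters (GRCm38.p6). It was in 3.44% of all 32851 promoters, and in 13 of the 19 promoters held for the 26 called genes. As promoters were held for 19 of these 26 genes, under 80%, no comparison of shares is made. The 250 bases before the start are shown for Isg15 and Irgm1 of this list and for B2m of antigen presentation, chosen after the values were seen because their promoters hold the core. Capitals mark the core, in Isg15 3 overlapping copies that end 57 bases before the start.
Isg15, chr4:156200819-156201068, minus strand: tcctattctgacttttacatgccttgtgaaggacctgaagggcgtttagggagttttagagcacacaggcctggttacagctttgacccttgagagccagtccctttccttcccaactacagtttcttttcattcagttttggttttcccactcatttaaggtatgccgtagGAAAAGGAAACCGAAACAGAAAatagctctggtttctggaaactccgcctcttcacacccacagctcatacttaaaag
Irgm1, chr11:48871421-48871670, minus strand: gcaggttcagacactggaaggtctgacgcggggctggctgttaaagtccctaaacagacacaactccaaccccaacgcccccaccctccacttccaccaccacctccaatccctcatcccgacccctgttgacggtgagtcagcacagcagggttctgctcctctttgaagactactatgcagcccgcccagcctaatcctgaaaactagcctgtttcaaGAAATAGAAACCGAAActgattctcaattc
B2m, chr2:122147437-122147686, plus strand: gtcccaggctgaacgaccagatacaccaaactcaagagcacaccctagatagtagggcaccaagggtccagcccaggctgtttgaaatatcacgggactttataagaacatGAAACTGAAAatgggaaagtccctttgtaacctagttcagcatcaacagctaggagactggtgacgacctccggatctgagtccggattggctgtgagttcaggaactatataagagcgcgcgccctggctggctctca

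Usp18, the protease that removes ISG15 from proteins and damps interferon signalling (chr6:121245906-121270917), gave 159, 232 and 219 CPM in Cont and 30.9, 28.2 and 16.7 CPM in +Sm3CA, an 8.26-fold lower level (log2 fold change -3.05 ± 0.36 SE, edgeR adjusted p = 7.64e-07). Ifitm3, a membrane protein that blocks virus entry (chr7:141009586-141010770, minus strand), gave 1581, 1970 and 1924 CPM in Cont and 553, 508 and 463 CPM in +Sm3CA (3.69-fold lower, edgeR adjusted p = 7.64e-07). Irgm1, an interferon-inducible GTPase (chr11:48861968-48871683), gave 136, 205 and 207 CPM in Cont and 44.9, 29.7 and 34.3 CPM in +Sm3CA (5.20-fold lower, edgeR adjusted p = 5.65e-06). In all 3 genes the lowest Cont library was several times the highest +Sm3CA library. Isg15, the ubiquitin-like modifier shown above, gave 10.6, 42.8 and 20.7 CPM in Cont and 4.68, 2.22 and 0.880 CPM in +Sm3CA (log2 fold change -3.28 ± 0.69 SE, edgeR adjusted p = 0.00279). Ifi44 gave 108, 181 and 155 CPM in Cont and 18.7, 33.4 and 7.92 CPM in +Sm3CA (7.45-fold lower, edgeR adjusted p = 7.88e-06). Transcription factors of the program were among the called genes: Stat2 had a log2 fold change of -1.56 and Irf7 of -2.31. Irf1 and Irf9 did not pass the test (edgeR adjusted p = 0.686 and 0.391). Ifit3 and I830012O16Rik are near-identical copies that can share reads, so that their values (log2 fold changes -2.95 and -3.23) are uncertain. The call on Isg15 was lost without Cont replicate 2 (edgeR adjusted p = 0.0686), and the list's count was 16 without that library or +Sm3CA replicate 3 and 17 without +Sm3CA replicate 2.

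MHC class I antigen presentation genes had 4 members called lower and 0 higher of 13 tested (median log2 fold change -0.69), against 2.74% called lower of all genes tested. B2m, the shared light chain of class I molecules (chr2:122147686-122153083), gave 3070, 3191 and 2826 CPM in Cont and 1416, 2112 and 1471 CPM in +Sm3CA (1.87-fold lower, edgeR adjusted p = 0.00159). H2-K1, a class I heavy chain (chr17:33996017-34000347), gave 86.7, 117 and 110 CPM in Cont and 36.5, 43.0 and 51.0 CPM in +Sm3CA (2.46-fold lower, edgeR adjusted p = 0.000761). Tapbp, the peptide-loading protein tapasin, and the heavy chain H2-D1 were 1.88-fold and 1.78-fold lower. None of the 4 overlapped between the conditions. Reads of H2-K1 and H2-D1 can be shared with other class I genes. The calls on Tapbp and H2-D1 were lost without Cont replicate 2 or +Sm3CA replicate 2 (edgeR adjusted p of up to 0.115 over all alternatives), and the count without either library was 2.

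**Figure D4:**
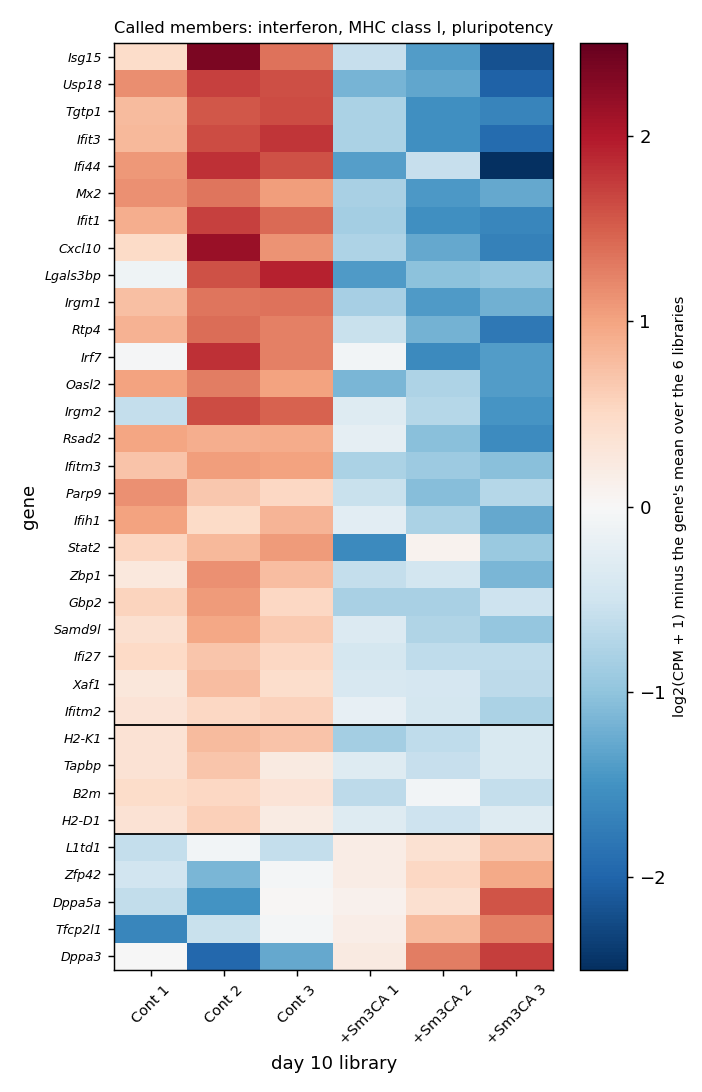
log2(CPM + 1) minus each gene's mean over the 6 day 10 libraries (colour; red above and blue below the mean) for 25 of the 26 interferon-stimulated and the 4 MHC class I genes called lower and the 5 pluripotency genes called higher (rows), by library (columns). Cont replicates 2 and 3 are darker red than Cont replicate 1 for many of the upper genes, and +Sm3CA replicate 3 is the highest library for each of the 5 pluripotency genes.

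Chemokines, cytokines and acute-phase proteins followed with 9 called lower and 0 higher of 30 tested (median log2 fold change -1.08). Ccl2, the chemokine that attracts monocytes (chr11:82035571-82037453), gave 634, 1190 and 1292 CPM in Cont and 299, 296 and 228 CPM in +Sm3CA (3.90-fold lower, edgeR adjusted p = 7.64e-07). Its neighbour Ccl7 (chr11:82045712-82047525) gave 808, 1211 and 1149 CPM in Cont and 368, 523 and 422 CPM in +Sm3CA (2.48-fold lower, edgeR adjusted p = 7.20e-05). Cxcl10, an interferon-induced chemokine (chr5:92346638-92348889), gave 54.8, 180 and 86.5 CPM in Cont and 22.5, 15.6 and 11.4 CPM in +Sm3CA (6.69-fold lower, edgeR adjusted p = 0.000334). The libraries did not overlap in any of these 3 genes. The other called members were Ccl3, Cxcl1, Cxcl5, Il6, Lcn2 and C1s, and of these Ccl3, Il6 and Lcn2 overlapped between the conditions. Il1b, an inflammatory cytokine, had a log2 fold change of 1.89 ± 1.02 (SE, edgeR adjusted p = 0.378). The count was 5 without Cont replicate 3 or +Sm3CA replicate 3.

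Marker genes of leukocytes were counted beside the immune lists. Of 14 markers, 13 were in the table, 11 were tested, all 11 had a negative log2 fold change, and Fcer1g and Cd52 were called lower. No marker in the table was at 0 in all 6 libraries. The summed level was 453, 1874 and 1842 CPM in Cont and 668, 636 and 1124 CPM in +Sm3CA, most of it Lyz2, the macrophage lysozyme. Cont replicate 1 thus had the lowest leukocyte sum of the 6 libraries. Its interferon-stimulated genes summed to 4624 CPM, against 1529 to 2045 CPM in the +Sm3CA libraries, and its chemokine list to 2650 CPM, against 1406 to 1687 CPM. These are values of 1 library, and the part of leukocyte content in the immune differences was not tested. Both calls on leukocyte markers were lost without Cont replicate 2 or 3 and without +Sm3CA replicate 1 or 2, that on Cd52 also without +Sm3CA replicate 3, with edgeR adjusted p-values of up to 0.328. Without Cont replicate 1, 6 markers were called lower. Mcpt8, a basophil protease, had 38 reads over the Cont libraries and 0 in +Sm3CA, an at least 3.33-fold lower level against a limit of 3 reads per library.

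Of 24 keratins and cornified envelope genes tested, 6 were called lower (Krt6a, Krt14, Krt16, Krt17, Sprr2b and Sprr2k), against 2.74% of all genes tested. The median log2 fold change of the list was -0.40. Krt16, a keratin of activated keratinocytes (chr11:100246091-100248902), gave 125, 170 and 161 CPM in Cont and 58.0, 50.4 and 28.2 CPM in +Sm3CA (3.43-fold lower, edgeR adjusted p = 4.34e-05). Krt14, the basal epidermal keratin (chr11:100203162-100207548), gave 218, 264 and 259 CPM in Cont and 124, 92.7 and 36.1 CPM in +Sm3CA (3.02-fold lower, edgeR adjusted p = 0.000166). Both genes had non-overlapping libraries. These keratins were near 0 in MEFs and ESCs, with means of 0.363 and 1.49 CPM for Krt16. Sprr2b and Sprr2k belong to a family of near-identical genes, and Sprr2k had 14 reads in Cont and 0 in +Sm3CA, so their values are uncertain.

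Epithelial junction genes had 0 members called by edgeR and by DESeq2 among 27 tested, with 19 positive log2 fold changes and a median of 0.23. An edgeR fit of the 6 day 10 libraries alone called 2 of the list higher. Cdh1, which encodes E-cadherin, gave 113, 102 and 101 CPM in Cont and 153, 167 and 158 CPM in +Sm3CA, and Epcam gave 44.2, 43.6 and 53.6 against 70.2, 74.9 and 82.7 CPM. Neither overlapped, as for 10.6% of all genes tested with +Sm3CA above, and neither passed the test (edgeR adjusted p = 0.113 and 0.139). Krt8, a keratin of simple epithelium, had means of 362 and 326 CPM (edgeR adjusted p = 0.641). S100A calcium-binding proteins had 2 of 10 members called lower, against 2.74% of all genes tested. These were S100a4 and S100a1, 2.93-fold and 1.65-fold lower. The call on S100a4 was lost without Cont replicate 2 (edgeR adjusted p = 0.0633) and that on S100a1 without +Sm3CA replicate 1 (edgeR adjusted p = 0.0670).

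Pluripotency factors and ESC-specific genes held the largest group of genes called higher among the lists. Of 31 tested, 5 were called higher and 0 lower, 29 had a positive log2 fold change, and the median was 0.80. The share called was 16.1%, against 0.83% called higher of all genes tested. Zfp42 (Rex1), a late marker of the pluripotent state (chr8:43295063-43306980, minus strand), gave 76.9, 48.1 and 104 CPM in Cont and 122, 154 and 207 CPM in +Sm3CA (2.04-fold higher, edgeR adjusted p = 0.00990). Dppa5a, an ESC RNA-binding protein (chr9:78367052-78368177), gave 240, 129 and 375 CPM in Cont and 393, 481 and 1085 CPM in +Sm3CA (2.55-fold higher, edgeR adjusted p = 0.0104). Dppa3 (Stella), a factor of the germline and of naive pluripotency (chr6:122626410-122630272), gave 20.4, 4.58 and 7.92 CPM in Cont and 24.3, 51.9 and 71.3 CPM in +Sm3CA (4.42-fold higher, edgeR adjusted p = 0.0122). The conditions did not overlap, but the highest Cont library came close to the lowest +Sm3CA library for Dppa5a and Dppa3. Tfcp2l1, a transcription factor of naive pluripotency, and L1td1, an RNA-binding protein of pluripotent cells, were 2.64-fold and 1.74-fold higher. The calls were fragile to the choice of libraries: the list had 0 called without +Sm3CA replicate 3, 1 without Cont replicate 2, 2 without +Sm3CA replicate 2 and 3 without Cont replicate 1, and DESeq2's Wald test called 1. The edgeR adjusted p without 1 library or under another alternative reached 0.121 for Zfp42, 0.262 for Dppa5a and 0.831 for Dppa3.

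The promoter of Zfp42 holds the octamer ATGCAAAT, the site of POU factors such as OCT4, on the strand opposite to the gene. The octamer was found on either strand in 1.74% of all promoters and in 1 of the 3 promoters held for the 5 called genes. Promoters were held for 3 of the 5, and no comparison is made. The sequence is shown for Zfp42 with the octamer in capitals, read 5′ to 3′ on the strand of the gene (GRCm38.p6), where it appears as its reverse complement.
Zfp42, chr8:43307010-43307259, minus strand: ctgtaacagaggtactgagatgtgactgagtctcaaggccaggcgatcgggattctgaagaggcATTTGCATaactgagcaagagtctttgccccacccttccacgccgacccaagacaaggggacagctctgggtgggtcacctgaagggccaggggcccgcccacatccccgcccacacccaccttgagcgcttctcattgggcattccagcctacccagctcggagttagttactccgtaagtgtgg

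Core factors of the network did not pass the test, with errors wide enough to hold changes of the size called elsewhere. Nanog, 1 allele of which carries the GFP reporter in these cells, gave 14.7, 6.88 and 11 CPM in Cont and 17.8, 13.3 and 6.16 CPM in +Sm3CA (log2 fold change 0.16 ± 0.58 SE, edgeR adjusted p = 0.933). Whether reads of the reporter allele are counted as Nanog was not tested. Esrrb gave means of 7.37 and 11.4 CPM (log2 fold change 0.61 ± 0.59 SE, edgeR adjusted p = 0.683). Trim71 and Gdf3, a TGF-β family ligand of pluripotent cells, had every +Sm3CA library above every Cont library, as had 10.6% of all genes tested. Neither passed the test, with log2 fold changes of 1.50 for Trim71 (edgeR adjusted p = 0.0577) and 1.24 for Gdf3 (edgeR adjusted p = 0.0856). Both conditions were far from ESCs, in which Zfp42 had a mean of 1815 CPM and Dppa5a 21127 CPM. The 10 ESC markers summed to 405, 264 and 642 CPM in Cont and to 691, 793 and 1574 CPM in +Sm3CA. The germline gene Rhox6, of a cluster of similar homeobox genes that can share reads, gave 9.81, 10.7 and 6.70 CPM in Cont and 12.2, 41.5 and 59.8 CPM in +Sm3CA (log2 fold change 2.03 ± 0.58 SE, edgeR adjusted p = 0.0474). That call was lost without any 1 library other than +Sm3CA replicate 1. DNA methylation writers and erasers had 0 members called by edgeR and DESeq2 among 7 tested, 3 with an unadjusted edgeR p under 0.05 and a median log2 fold change of 0.43. Tet1, which oxidises methylcytosine, had a log2 fold change of 1.03 (edgeR adjusted p = 0.172).

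Of 35 DNA replication genes 1 was called higher, Gins1, and of 35 mitosis genes 1, Smc4, against 0.83% called higher of all genes tested. In each list 32 log2 fold changes were positive, with medians of 0.23 and 0.32, against 49.6% positive of all genes tested. Gins1, a subunit of the replicative helicase complex (chr2:150905400-150931280), gave 16.4, 16 and 20.1 CPM in Cont and 35.6, 48.9 and 40.5 CPM in +Sm3CA (2.31-fold higher, edgeR adjusted p = 0.00827). Smc4, a condensin subunit (chr3:69004738-69034623), gave 144, 139 and 130 CPM in Cont and 236, 230 and 219 CPM in +Sm3CA (1.62-fold higher, edgeR adjusted p = 0.00971). Neither overlapped. Of 16 genes for D cyclins, CDK inhibitors and the p53 axis, 2 were called lower, against 2.74% of all genes tested. Cdkn1a, the CDK inhibitor p21 (chr17:29090976-29100727), gave 772, 841 and 882 CPM in Cont and 545, 540 and 568 CPM in +Sm3CA (1.55-fold lower, edgeR adjusted p = 0.0226), and Mdm2, the ubiquitin ligase of p53 (chr10:117688875-117710758), gave 159, 206 and 152 CPM against 94.5, 57.8 and 88.0 CPM (2.22-fold lower, edgeR adjusted p = 0.00159). The call on Cdkn1a was lost without any 1 library other than Cont replicate 1 (edgeR adjusted p of up to 0.128), that on Gins1 without Cont replicate 2 or +Sm3CA replicate 2, and that on Smc4 without Cont replicate 3.

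Single members of other lists were called. Slc2a1, the glucose transporter GLUT1, gave 188, 52.0 and 52.4 CPM in Cont and 203, 226 and 179 CPM in +Sm3CA (2.06-fold higher, edgeR adjusted p = 0.0313). Cont replicate 1 was at the +Sm3CA level for Slc2a1, and without it 4 of the 21 glycolytic genes tested were called higher, against 1 with it. Gcat, an enzyme of glycine and threonine metabolism, was 1.67-fold higher and Peg3, an imprinted zinc finger gene, 3.04-fold higher, while Fgf7, a growth factor from mesenchyme, was 3.18-fold lower. The calls on Slc2a1, Gcat, Peg3 and Fgf7 were each lost without Cont replicate 2 or 3 and without +Sm3CA replicate 1, that on Slc2a1 also without +Sm3CA replicate 2 or 3, that on Peg3 also without +Sm3CA replicate 2 and that on Fgf7 also without +Sm3CA replicate 3, with edgeR adjusted p-values of up to 0.240 for Slc2a1, 0.235 for Gcat, 0.212 for Peg3 and 0.211 for Fgf7. The cholesterol synthesis (21 tested), nucleolar ribosome biogenesis (25 tested) and Hox cluster (9 tested) lists had 0 members called by edgeR and DESeq2, with 2, 1 and 1 members at an unadjusted edgeR p under 0.05.

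Outside the lists, the genes called higher with the smallest p-values were Gm10664, Cul4b, Alg13, Rif1, 2610318N02Rik and Car2, beside Mbp and Enpp2, which are described below. Gm10664, a predicted gene, gave 38.4, 39.0 and 33.5 CPM in Cont and 106, 187 and 151 CPM in +Sm3CA (3.91-fold higher, edgeR adjusted p = 1.65e-06), and its mean was 0.222 CPM in MEFs and 173 CPM in ESCs. Cul4b, a scaffold of ubiquitin ligases (chrX:38533274-38576196), gave 49.9, 68.0 and 71.3 CPM in Cont and 116, 153 and 133 CPM in +Sm3CA (2.06-fold higher, edgeR adjusted p = 0.000427). Rif1, a regulator of replication timing and of DNA break repair (chr2:52072832-52122383), gave 69.5, 72.6 and 91.4 CPM in Cont and 159, 145 and 170 CPM in +Sm3CA (1.97-fold higher, edgeR adjusted p = 0.00232). None of these overlapped between the conditions. Alg13, of protein glycosylation, was 2.19-fold, 2610318N02Rik 2.60-fold and Car2, carbonic anhydrase 2, 2.26-fold higher. Of the called genes with the largest folds, Mtss1, an actin and membrane scaffold, was 4.26-fold, the axon guidance receptor Robo2 3.32-fold and Ccdc18 2.75-fold higher. The calls on Mtss1, Robo2 and Ccdc18 were lost without Cont replicate 3 or +Sm3CA replicate 2, that on Robo2 also without +Sm3CA replicate 3 and that on Ccdc18 also without Cont replicate 2 or +Sm3CA replicate 1 (edgeR adjusted p of up to 0.0596, 0.189 and 0.148).

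Of the genes called lower outside the lists, Wls, the carrier that Wnt proteins need for secretion (chr3:159839672-159938664), gave 124, 173 and 154 CPM in Cont and 42.1, 60.8 and 32.6 CPM in +Sm3CA (3.39-fold lower, edgeR adjusted p = 7.88e-06). Ces1g, a carboxylesterase with close relatives that can share reads, gave 12.3, 42.8 and 20.7 CPM in Cont and 1.87, 0.741 and 1.76 CPM in +Sm3CA, below the level of 3 reads. Its fitted log2 fold change was -4.13 ± 0.58 (SE, edgeR adjusted p = 1.45e-05). C1qtnf3, a secreted C1q-related protein, gave 8.99, 19.1 and 23.1 CPM in Cont and 0.936, 1.48 and 0.880 CPM in +Sm3CA (log2 fold change -3.90, edgeR adjusted p = 0.000293). The +Sm3CA libraries were again at or below the level of 3 reads. Tnfrsf11b (osteoprotegerin, the decoy receptor for RANKL) and Serpina3h, a secreted protease inhibitor, had log2 fold changes of -3.39 and -3.08, the call on Serpina3h being lost without Cont replicate 3 (edgeR adjusted p = 0.0592). Malat1, a nuclear non-coding RNA and one of the most abundant transcripts, gave 5391 ± 41.6 CPM in +Sm3CA and 12030 ± 1643 CPM in Cont (SD, n = 3 each; log2 fold change -1.20, edgeR adjusted p = 0.000146), and was named after its value was seen.

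Some genes called higher were high in 1 library. Ttr, the carrier transthyretin, gave 0, 2.29 and 0.609 CPM in Cont and 234, 0 and 0 CPM in +Sm3CA. Mbp, myelin basic protein, gave 7.36, 13 and 7.92 CPM in Cont and 347, 23 and 13.2 CPM in +Sm3CA, and Enpp2, autotaxin, 0, 0.764 and 0 CPM against 94.5, 1.48 and 2.64 CPM. The values of +Sm3CA replicate 1 carried these differences. Without it, the log2 fold changes were not called (edgeR adjusted p = 0.619 for Mbp, 0.547 for Enpp2 and 0.732 for Ttr), and that of Ttr had the opposite sign. The call on Ttr on day 10 was also lost without Cont replicate 3 (edgeR adjusted p = 0.0507). Kif5a, a neuronal kinesin, gave 20.6 CPM in that library and 2.22 and 2.64 in the other +Sm3CA libraries, and its call was lost without any of the Cont libraries or without +Sm3CA replicate 1 (edgeR adjusted p of up to 0.330). On day 8 the same 4 genes were called in the opposite direction, with log2 fold changes of -4.98 for Mbp, -6.29 for Enpp2, -5.25 for Ttr and -3.64 for Kif5a. The Cont libraries of that day were themselves unequal, with 354 ± 423 CPM for Mbp and 243 ± 301 CPM for Ttr (SD, n = 3). Of the neuron and glia markers, Mbp was the only called gene among 8 tested, and of the primitive endoderm markers, Ttr was the only one among 6. The sums of these lists were 1586 to 2602 CPM and 88.2 to 327 CPM in +Sm3CA and 1770 to 2073 CPM and 105 to 127 CPM in Cont, with no marker at 0 in all 6 libraries.

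The genes called on day 10 were followed back over the earlier days. Libraries of different days are separate samples, so the earlier days are data that the day 10 test did not use as a contrast, although the fit shares its estimate of spread over the days. The series text pairs the replicate numbers over days within each condition, so the earlier days cannot be taken as independent replicates of day 10. Of the 281 genes called lower, 233 (82.9%) had a negative log2 fold change on day 8, while there were 206 (73.3%) for day 6 and 115 (40.9%) for day 3, against 50.3%, 48.9% and 49.5% of all genes tested. Their median log2 fold change over day 3, 6, 8 and 10 was 0.05, -0.18, -0.43 and -1.39. On day 8, 30 of them were called lower and 0 higher, against 106 genes called in all (1.04% of those tested), 0.654% lower and 0.381% higher. Of the 85 genes called higher, 61 (71.8%) had a positive log2 fold change on day 8, 60 (70.6%) on day 6 and 39 (45.9%) on day 3, against 49.6%, 51% and 50.3% of all genes tested. Their median log2 fold change over day 3, 6, 8 and 10 was -0.01, 0.13, 0.22 and 0.95. On day 8, 2 of them were called higher while 4, the ones with 1 high library named above, were called lower.

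The summed levels of the lists were followed over the days. In Cont, the interferon-stimulated genes summed to 929 ± 52.5, 2496 ± 689 and 5500 ± 797 CPM over day 6, 8 and 10, while in +Sm3CA they summed to 864 ± 254, 1674 ± 268 and 1802 ± 260 CPM (SD, n = 3 each). The sum in ESCs was 4051 ± 48.1 CPM. Such sums are weighted to the most abundant members and do not show the level of each member. Chemokines and cytokines went from 1843 ± 207 on day 8 to 3796 ± 1005 CPM on day 10 in Cont and from 1759 ± 219 to 1575 ± 149 CPM in +Sm3CA. The TGF-β and SMAD3 target genes of fibroblasts went from 1974 ± 97.3 CPM on day 6 to 3762 ± 651 CPM on day 10 in Cont and from 1667 ± 197 to 1593 ± 156 CPM in +Sm3CA. In Cont each of these sums was higher on day 10 than on the earlier days given here, while in +Sm3CA the chemokine and SMAD3 target sums were lower on day 10 than on day 8. Day 3 and MEFs are left out of this comparison. The mean of Acta2 alone in MEFs, given above, was far above the day 10 sums of its SMAD3 target list. Pluripotency genes summed to 421 ± 26.2 CPM in Cont and 475 ± 26.6 CPM in +Sm3CA on day 8. On day 10 they summed to 976 ± 272 and 1912 ± 584 CPM, and in ESCs to 29756 ± 7266 CPM. Gene by gene, the median log2 fold change of this list was 0.34 on day 8, with 0 members called, and 0.80 on day 10. Over all genes tested the medians were -0.003 and -0.01.

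**Figure D5:**
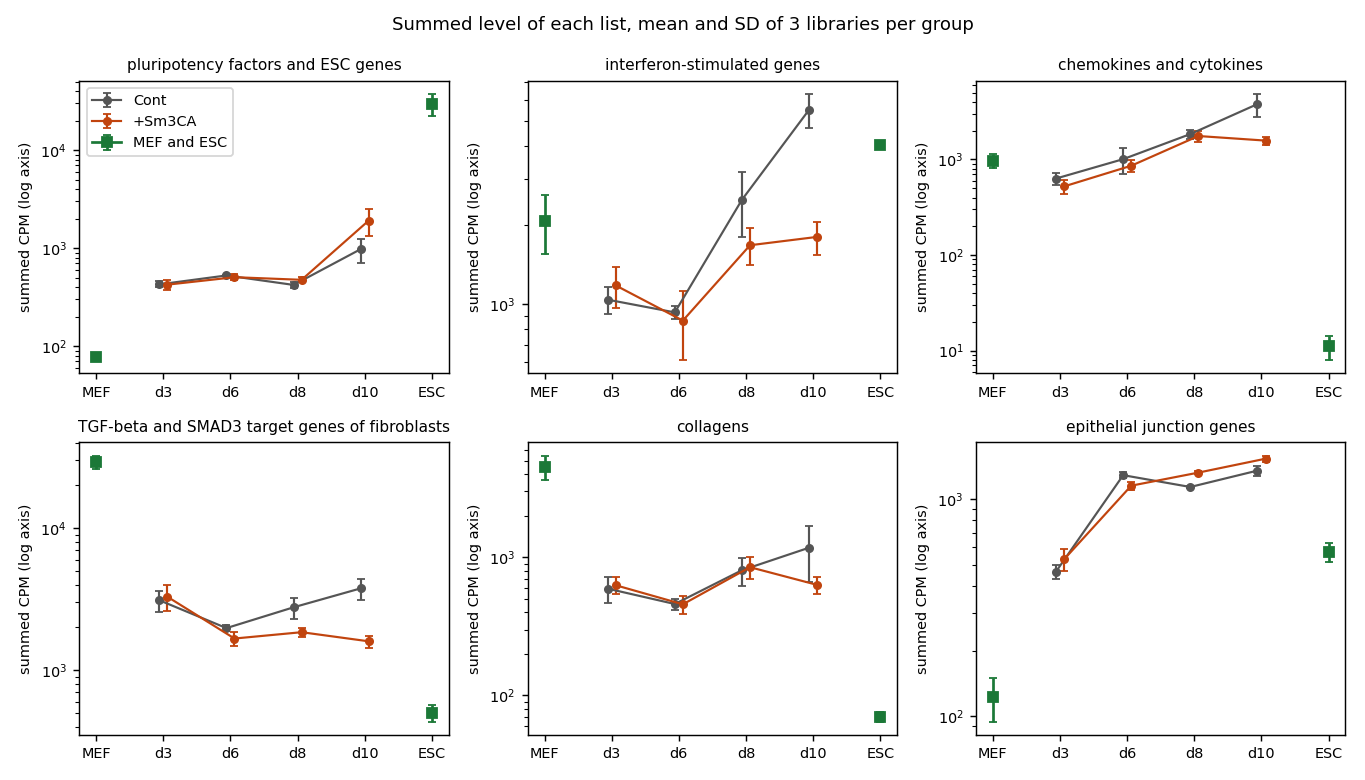
Summed CPM of 6 gene lists (log y axes, scaled for each panel) in MEFs, on day 3, 6, 8 and 10 of reprogramming in Cont (grey) and +Sm3CA (orange), and in ESCs; points are means and bars SDs of 3 libraries. On day 10 the Cont means of the interferon-stimulated, chemokine, SMAD3 target and collagen lists lie above the +Sm3CA means, and that of the pluripotency list below.

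The change of the difference over time was tested gene by gene. Between day 8 and day 10, 19 genes (0.186% of those tested) changed their +Sm3CA to Cont difference by edgeR, 6 upward (0.0586%) and 13 downward (0.127%), and with the replicate number as a block, since the series text pairs the numbers over days within each condition, there were 40, 11 upward and 29 downward. Ccl7, Slc25a17, a peroxisomal carrier, Ctsl, Itm2a, a membrane protein, and S100a1 had the smallest p-values among those downward. Ccl7 went from a log2 fold change of 0.43 on day 8 to -1.31 on day 10 (change -1.74, edgeR adjusted p = 0.00135), and Ctsl from 0.11 to -1.25 (change -1.36, edgeR adjusted p = 0.00517). Among the upward genes were Mbp, Enpp2, Ttr and Kif5a, which have 1 high library on day 10, and without +Sm3CA replicate 1 the count upward was 1. Between day 3 and day 10, 103 genes (1.01%) changed, 11 upward (0.107%) and 92 downward (0.899%). Among the 92 were Actg2 (change -2.81), Acta2 (-2.42), Ifitm3 (-2.12), Tnc (-3.55) and Krt17 (-2.11), and 11 of the 37 matrix glycoprotein genes, 6 of the 21 SMAD3 targets, 6 of the 15 contractile genes and 6 of the 52 interferon-stimulated genes. Leaving out 1 library moved the 19 to between 7 (without +Sm3CA replicate 1) and 65 (without Cont replicate 1), with 10, 11 and 9 without Cont replicates 2 and 3 and +Sm3CA replicate 3. It moved the 103 to between 32 (without Cont replicate 2) and 192 (without Cont replicate 1), with 41 without Cont replicate 3 or +Sm3CA replicate 2 and 43 without +Sm3CA replicate 3.

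Set against the start and end of reprogramming, 214 of the 281 genes called lower (76.2%) were lower in ESCs than in MEFs by edgeR, against 29.7% of all genes tested, and 61 of the 85 called higher (71.8%) were higher in ESCs than in MEFs, against 28.9%. For 82 of the 281 (29.2%, against 11.7% of all genes tested), the Cont level on day 8 was over 2 times that of both MEFs and ESCs. Usp18 is an example, with means of 3.31 CPM in MEFs, 71.1 CPM in Cont on day 8 and 0 CPM in ESCs, and Krt14 another, with 0.182 CPM, 189 CPM and 0 CPM.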

How the data were processed

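STRT RNA-seq, which tags the 5′ ends of transcripts, was measured in 84 wells. The authors deposited one table of raw read counts per gene symbol and well (18909 symbols), and the submitters' processing notes name Bowtie 0.12.9, DESeq2 1.6.3 and the mm10 build. By the study's methods the platform also gives molecule counts and reads were preferred, so PCR copies count as reads and limits on counts cover counting error only. Wells of a library were summed. From these counts, edgeR 4.0.16 (R 4.3.3) was fitted to the 24 reprogramming libraries as 8 groups with TMM scaling, after filterByExpr, by the quasi-likelihood test; a gene was called at a Benjamini-Hochberg adjusted p under 0.05. CPM use TMM library sizes over all 30 libraries. Standard errors are the log2 fold change divided by the root of F. Scripts were tested on simulated counts. Coordinates are from GENCODE M21 (GRCm38), in which 92.2% of symbols matched. Strand-specific counting is not given in the sources used here.

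Named genes were Smad3, Smad2 and the MKOS factors; up to 4 called members per list and direction with the smallest adjusted p; called cell type markers; 8 genes per direction by p and 8 by fold (non-overlapping, a mean of 20 reads or more per library in the higher group); and 5 per direction for each change over days. Other members are named as list members. A few genes that these rules or lists hold are not reported here, though they stay in the counts. The members and lists were chosen with earlier results of these data known. Alternatives were DESeq2 size factors, DESeq2 1.42.0's Wald test, no filter, all 30 libraries, the 6 day 10 libraries alone, replicate blocks, 1 well per library and leaving out each library, and, chosen after seeing the data, total reads and upper-quartile scaling. The series text pairs replicate numbers over days within a condition, so a block on that number is given beside changes over days; deviations of same-numbered libraries from their group means correlated between -0.0631 and 0.0600 over days.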

Additional observations from a re-analysis of the deposited data

Results flagged for a closer look

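The +Sm3CA to Cont difference changed between days for the genes below, by a test of the change itself (edgeR, adjusted p-values given). Between day 8 and day 10 it changed upward on the log2 scale by 8.68 for Mbp (7.13e-06), 12.92 for Enpp2 (1.53e-05), 11.42 for Ttr (8.69e-05) and 8.34 for Kif5a (0.00160). Each of these was high in +Sm3CA replicate 1 on day 10 and had a higher mean in Cont than in +Sm3CA on day 8, with an SD over the Cont libraries above that mean, and without +Sm3CA replicate 1 the calls on Enpp2, Ttr and Kif5a were lost, Mbp keeping its call. It changed by -1.74 for Ccl7 (0.00135), -1.44 for Slc25a17 (0.00209), -1.36 for Ctsl (0.00517), -1.99 for Itm2a (0.0151) and -1.13 for S100a1 (0.0151). The call on Ctsl was lost without +Sm3CA replicate 1, that on Itm2a without Cont replicate 3 or +Sm3CA replicate 3, and that on S100a1 without Cont replicate 2 or +Sm3CA replicate 1.

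Between day 3 and day 10 it changed by 1.66 for Cul4b (0.000269), 3.03 for Ccdc18 (0.00552), 2.88 for Mtss1 (0.0133), 1.33 for Tlk1 (0.0187) and 6.20 for Cyp2s1 (0.0257), and by -2.81 for Actg2 (4.77e-05), -2.42 for Acta2 (8.74e-05), -2.12 for Ifitm3 (8.74e-05), -3.55 for Tnc (8.74e-05), -2.11 for Krt17 (0.000160) and -2.54 for Smad3 (0.00585). The calls on Mtss1, Tlk1 and Cyp2s1 were each lost without 1 library or more, among them Cont replicate 3 for Mtss1 and Tlk1 and Cont replicate 2 for Cyp2s1. With 3 libraries a group, no test for single outlying libraries was run.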

How the results depend on the processing

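With 3 libraries a side, 1008596 to 1434427 reads a library and reads that include PCR copies, genes near 3 reads are poorly resolved, and 1630 genes had an unadjusted p under 0.05. On day 10, 366 genes (85 higher, 281 lower) became 224 (39 and 185) in a fit of all 30 libraries. The second wells alone gave 36 higher and total-read scaling 51 higher; the lower share of calls, 76.8%, was 84.8% with total reads and 82.6% with all 30 libraries. Leaving out 1 library gave 176 to 450 calls, 31 to 110 higher and 134 to 340 lower. Calls shared in direction were 97.8% of the 366 with DESeq2 size factors and 81.7% with DESeq2's Wald test. Smad3 passed the test in 1 alternative, without a filter on low counts (1.01, adjusted p = 0.0473). The replicate block between Cont and +Sm3CA gave 368 calls (86 higher, 282 lower); same-numbered libraries share only a number (correlations -0.0421, -0.00700 and -0.00617), and of the called genes named, Rhox6 alone lost its call under it. The 19 changes from day 8 to day 10 (6 upward, 13 downward) became 73 (14 and 59) with DESeq2's Wald test, whose own filter left 1249 genes, 133 (50 and 83) without a filter, 8 (2 downward) with all 30 libraries, 40 (11 and 29) with the replicate block over days, 12 (7 downward) with second wells and 45 (37 downward) with total reads. Total reads moved the median of all genes in this contrast to -0.13 from -0.03. Leaving out 1 library gave 7 to 65, 1 to 18 upward and 4 to 47 downward. The 103 changes from day 3 (11 upward, 92 downward) became 198 (42 and 156) without a filter, 42 (3 and 39) with all 30 libraries, 62 (4 and 58) with first wells, 57 (2 and 55) with second wells, 27 upward with DESeq2's Wald test and 5 upward with total reads, where the median of all genes was -0.16. Leaving out 1 library gave 32 to 192, 4 to 34 upward and 27 to 158 downward. Signs reversed for Sox2 on day 10 (0.21 with second wells, -0.32 to 0.021 without 1 library, positive without Cont replicate 3), Klf4 on day 10 (-0.93 with first wells, -0.0085 with total reads, -0.30 to 0.35 without 1 library, negative without Cont replicate 1 or +Sm3CA replicate 1) and Ttr on day 10 (-3.80 to 7.48 without 1 library, negative without +Sm3CA replicate 1). Of 1423 values of named genes on day 10 under alternatives, 1255 kept direction and side of the threshold and 161 lost the call. The 1255 include values that kept direction but had no adjusted p in the alternative, so that the side of the threshold was not known. The causes were not tested.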

Other observations

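Mitochondrially encoded transcripts were looked at after the share of mitochondrial reads was seen. Of 34 tested, 4 were called higher and 0 lower by edgeR, against 0.83% called higher of all genes tested, and 17 had non-overlapping libraries with +Sm3CA above, against 10.6%, while the 44 subunits of oxidative phosphorylation encoded in the nucleus had a median log2 fold change of -0.01 and 0 members called by edgeR or DESeq2, 4 having an unadjusted edgeR p under 0.05. Neat1, a nuclear non-coding RNA, gave 149, 121 and 82.8 CPM in Cont and 192, 235 and 167 CPM in +Sm3CA (log2 fold change 0.72 ± 0.19 SE, edgeR adjusted p = 0.0212), in the opposite direction to Malat1 (-1.20). Nppc, a natriuretic peptide, had 19 reads in Cont and 0 in +Sm3CA, an at least 1.73-fold lower level against 3 reads per library, and Amy2b, an amylase with near-identical copies, had 0 reads in Cont and 14 in +Sm3CA, an at least 1.87-fold higher level.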
